A study of Schizosaccharomyces pombe with 21 samples.

Results

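The genes described here are 9 genes of meiosis in the fission yeast *Schizosaccharomyces pombe*, namely *ste11*, *mei2*, *mei4*, *rep1*, *rec8*, *atf21*, *spo6*, *mug27* and *bqt2*. They were taken by their PomBase symbols, *bqt2* through its identifier SPAC1002.06c, and all 9 are among the 6988 gene identifiers of the deposited count tables. PolyA RNA was sequenced in 21 libraries, 3 in each of 7 groups. The wild type (Strain Sp1) was sampled at 0 h, in log phase at 30°C in the phosphate-replete medium ePMGT(+PO4), and after 1, 2 and 4 h in the phosphate-free medium ePMGT(-PO4). The mutant HASX (Strain BS1453) was sampled after 1, 2 and 4 h in ePMGT(-PO4). It carries asp1-H397A, which removes the pyrophosphatase activity of the inositol pyrophosphate kinase and pyrophosphatase Asp1, and knockouts of *aps1*, *siw14* and *spx1*, the last called *pqr1* in the annotation. The labels give these as asp1-H397A::natMX, aps1∆::kanMX, siw14∆::hygMX and spx1∆::ura4MX. HASX thus differs from the wild type in these marker cassettes too, *ura4* among them. All strains are h-, that is, haploid cells of a single mating type, labelled as vegetative. No HASX group at 0 h and no mock transfer to fresh replete medium was among the groups analysed, and HASX is represented by 1 strain. The labels call the libraries biological replicates but do not say how the cultures were kept apart, so p-values measure the spread between these samples.

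Fission yeast cells leave the mitotic cycle for mating and meiosis when nutrients run short. Ste11, a transcription factor with an HMG box, turns on the genes of mating and of early meiosis, among them *mei2*, whose product is an RNA-binding protein that starts meiosis and is held inactive in growing cells by the kinase Pat1. Rep1 activates the MBF transcription factor for the DNA synthesis before meiosis, Mei4 is a forkhead factor of the middle meiotic genes, and Atf21 is a factor of the ATF/CREB family. Rec8 is the meiotic cohesin subunit, Bqt2 helps tether telomeres to the spindle pole body in the bouquet, Spo6 is a regulatory subunit of the kinase Spo4 in the second division, and Mug27 (also Slk1) is a kinase of forespore membrane formation. In growing cells the RNA-binding protein Mmi1 directs meiotic transcripts such as those of *mei4* and *rec8* to the exosome, and meiRNA, the product of *sme2*, counters Mmi1 together with Mei2.

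Libraries held 11.24 M to 23.68 M counts. Levels are CPM, counts scaled to a common library size, given as mean ± SD, and differences are log2 fold changes with their standard error (SE). A gene was called higher or lower at an adjusted p under 0.05 (edgeR's quasi-likelihood test, Benjamini-Hochberg adjustment over 6234 genes). Of the engineered genes, *aps1* was at 156 to 215 CPM in the 12 wild-type libraries and at 3.20 to 5.99 in HASX apart from replicate 3 at 4 h. There *siw14* was at 98.6 to 257 CPM against 0.569 to 3.72, and *pqr1* at 232 to 343 against 43.3 to 99.6. The mutated *asp1* gene was transcribed in both, at 53.5 to 96.0 and 82.8 to 110 CPM. The library labelled HASX 4 h replicate 3 stood apart: its log2 levels correlated across genes at 0.896 and 0.893 with the other replicates, against 0.983 to 0.996 within the other groups and between replicates 1 and 2. In it *siw14* was at 69.6 CPM, *aps1* at 15.3, *asp1* at 306 and *pqr1* at 69.7, while the marker gene *ura4*, with 0 counts in every wild-type library, was at 731 CPM, against 640 to 923 in the other HASX libraries. HASX at 4 h is therefore given as replicates 1 and 2 (n = 2) with replicate 3 named beside them. Replicate 3 has a term of its own in the model and enters no group mean.

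The h- label was set against markers of the mating types. Of 11 markers of h- (M) cells, the summed level was 281 to 421 CPM in the wild type at 0 h and 733 to 886 at 4 h, against 153 to 229 over all HASX libraries. The mating-type genes mat1-Mc, mat1-Mi and mat3-Mi had 0 counts in every library, and how reads of the silent and active copies were counted is not given. The 3 measured markers of P cells, *map2*, *map3* and *map4*, summed to 47.6 to 88.9 CPM in the wild type. In HASX they summed to 78.7 to 118 CPM apart from replicate 3 at 4 h, where the sum was 128. In that library *map2* was at 44.4 CPM, against 8.47 and 7.10 in replicates 1 and 2. Markers of both types were thus above 0 in all libraries. The lower M sum in HASX lay mainly in the M-factor precursor gene *mfm2*, whose mean after 1 h was 201 CPM in the wild type against 4.51 for HASX. Of the 7 M markers tested, 2 were called higher and 2 lower in HASX after 1 h (39% and 40.1% of all genes), 1 and 4 after 2 h (40% and 41.3%), and 1 and 6 after 4 h (34.9% and 38.2%). The carboxypeptidase gene *sxa2* was higher each time (1.17, 1.65 and 0.73), as was the adhesion gene *mam3* after 1 h (111 CPM against 52.7). All 3 P markers were called higher in HASX after 1 h (*map2* 1.42, *map3* 1.37 and *map4* 0.93). After 2 h 1 was higher and 0 lower, and after 4 h 1 was higher and 1 lower, beside the same shares of all genes. The part of these markers in the results below was not tested. In bulk RNA, more cells that express a gene and more RNA per cell cannot be told apart, here and throughout.

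In the wild type, 7 of the 9 genes rose between 0 and 4 h without phosphate, *spo6* fell, and *mug27* was not called (0.04 ± 0.59, adjusted p = 0.961). Over all genes 29.7% were called higher and 29.6% lower in this comparison. The 9 genes and the lists below were chosen with earlier results of these data known. Their shares and medians beside those of all genes are therefore descriptions, here and below, and not tests. All 7 that rose were at least 2-fold higher, as were 8.82% of all genes, and the median over the 9 was 1.39, against 0.01 over all genes tested. After 1 h *rec8* was called higher and *mei2* lower, while 6.43% of all genes were called higher and 6.83% lower. After 2 h *ste11*, *mei2* and *rep1* were called higher, against 16.1% of all genes.

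In HASX, *atf21*, *rec8*, *mei4*, *mug27*, *bqt2* and *rep1* were higher than in the wild type at each of the 3 times, and *ste11* and *mei2* were between -0.09 and 0.60 of it on the log2 scale. After 1 h, 8 genes were higher and *spo6* lower, but 79.1% of all genes were called in this comparison, 39% as higher and 40.1% as lower, so a count of calls alone says little about these genes. At least 4-fold higher after 1 h were 6 of the 9, and 12.9% of all genes. As the 9 were chosen with earlier results known, such shares and the medians describe them and test nothing about the set. After 2 h, 6 were higher and none lower (81.3% of all genes called, 40% higher and 41.3% lower), and 5 were at least 4-fold higher, against 13.7%. After 4 h, in replicates 1 and 2, 7 were higher and none lower (73% called, 34.9% higher and 38.2% lower), and 4 were at least 4-fold higher, against 9.34%. The medians over the 9 were 3.13, 2.37 and 1.04 at 1, 2 and 4 h, and those over all genes tested were between -0.05 and 0. On CPM as given here, *rec8* and *mug27* reached 0.546, the level of the count filter, in 0 of 12 wild-type libraries and in 9 of 9 HASX libraries. The filter itself ran before library sizes were rescaled, so its own counts of libraries can differ. On the scale given here both genes passed only by being higher in HASX. Leaving those out, 4 of 7 were at least 4-fold higher after 1 h, 3 of 7 after 2 h and 2 of 7 after 4 h, and the medians over the 7 were 2.50, 1.82 and 0.95.

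Over time without phosphate, from 1 to 4 h, the wild type had 6 of the 9 genes higher and *spo6* lower, while 27.9% of all genes were called higher and 24.7% lower. HASX had *ste11*, *mei2* and *atf21* higher and *mei4*, *mug27* and *bqt2* lower, against 23.2% and 21% of all genes. The difference between those changes was called for 5 genes, below 0 for *mei2*, *mei4*, *rep1* and *bqt2* and above 0 for *spo6* (23.8% of all genes below 0 and 21.8% above). Against the wild type in replete medium, HASX had 7, 8 and 8 of the 9 higher after 1, 2 and 4 h and none lower, with 38.1%, 38.6% and 36.1% of all genes called higher. These comparisons share the wild type at 0 h with those above, and strain and starvation change together in them.

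**Figure D1:**
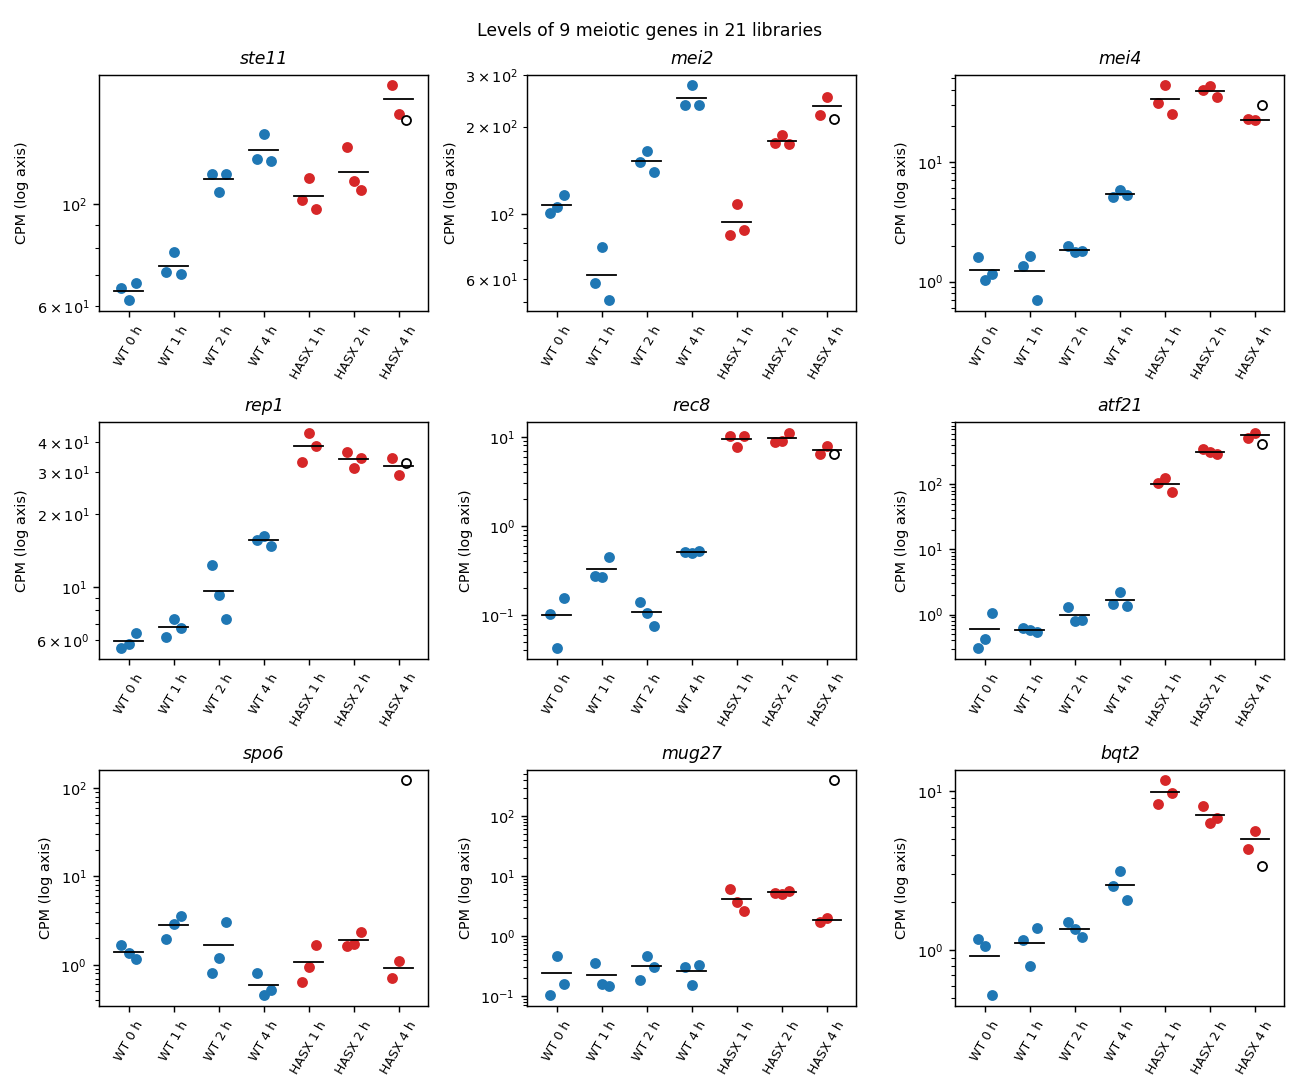
CPM on a log axis for each of the 9 genes, with 1 point per library, 7 groups from left to right and a bar at each group mean; blue is the wild type, red is HASX, and the open circle is HASX 4 h replicate 3, which is not in its group's bar. *ste11* and *mei2* are higher after 4 h than after 1 h in both strains, 6 genes sit higher in every HASX library than in any wild-type library, and the open circle stands alone in *spo6* (122 CPM) and *mug27* (395 CPM).

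*ste11* (SPBC32C12.02) rose with time in both strains. Its level was 65.6, 61.7 and 67.2 CPM in the 3 wild-type libraries at 0 h, 71.2, 78.5 and 70.3 at 1 h, 116, 106 and 116 at 2 h, and 125, 142 and 124 at 4 h. The groups at 2 and 4 h lay wholly above those at 0 and 1 h. Against 0 h it changed by 0.80 ± 0.10 at 2 h and by 1.01 ± 0.10 at 4 h (adjusted p = 3.93e-06 and 1.02e-08), and the value at 1 h was 0.18 ± 0.10 (adjusted p = 0.273).

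In HASX *ste11* was at 102, 114 and 97.6 CPM after 1 h, 133, 112 and 107 after 2 h, and 181 and 157 after 4 h, with 152 in replicate 3. It exceeded the wild type by 0.51 ± 0.10 at 1 h and by 0.37 ± 0.11 at 4 h (adjusted p = 6.35e-05 and 0.00421), and the difference at 2 h was 0.06 ± 0.10 (adjusted p = 0.604). Without HASX 4 h replicate 1 the later call ended (0.28, adjusted p = 0.0571), at the low end of 0.28 to 0.51 over the 20 libraries left out in turn. Ordered by mean level the groups ran from the wild type at 0 h (64.8 ± 2.81) and 1 h (73.3 ± 4.48) through HASX 1 h (104 ± 8.23), the wild type at 2 h (113 ± 5.61), HASX 2 h (117 ± 13.6) and the wild type at 4 h (131 ± 10.1) to HASX 4 h (169 ± 16.9, n = 2). From HASX 1 h to the wild type at 4 h each group overlapped the next in its single libraries.

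The rise of *ste11* from 1 to 4 h was 0.83 ± 0.10 in the wild type (adjusted p = 2.24e-07) and 0.70 ± 0.11 in HASX (adjusted p = 1.99e-05). The difference between those rises was -0.14 ± 0.15 (adjusted p = 0.472), which does not show that they were equal.

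*mei2* (SPAC27D7.03c) first fell and then rose in the wild type. Its level was 101, 106 and 117 CPM at 0 h, 58.3, 77.4 and 50.8 at 1 h, 151, 165 and 140 at 2 h, and 237, 277 and 237 at 4 h. No library of 1 group overlapped another group. Against 0 h the changes were -0.79 ± 0.13, 0.50 ± 0.13 and 1.22 ± 0.13 at the successive times (adjusted p = 0.000106, 0.00697 and 2.48e-08).

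HASX held *mei2* at 85.2, 109 and 88.8 CPM after 1 h, 176, 187 and 175 after 2 h, and 219 and 252 after 4 h, with 213 in replicate 3. All 3 libraries at 1 h were above those of the wild type at 1 h, while the groups overlapped at 4 h. The difference from the wild type went from 0.60 ± 0.13 (adjusted p = 0.000165) through 0.24 ± 0.13 after 2 h (adjusted p = 0.0813) to -0.09 ± 0.14 after 4 h (adjusted p = 0.575). From 1 to 4 h *mei2* rose by 2.01 ± 0.13 in the wild type and 1.32 ± 0.14 in HASX, and the difference between these rises was called (-0.69 ± 0.19, adjusted p = 0.00483). Against the wild type at 0 h, HASX after 1 h was at -0.19 ± 0.13 (adjusted p = 0.171).

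*rep1* (SPBC2D10.06), the activator of the MBF factor, was higher in HASX than in any wild-type library. The wild type had 5.58, 5.81 and 6.46 CPM at 0 h, 6.22, 7.39 and 6.77 at 1 h, 12.3, 9.24 and 7.34 at 2 h, and 15.6, 16.3 and 14.8 at 4 h. HASX had 33.0, 43.7 and 38.6 CPM after 1 h, 36.5, 31.1 and 34.5 after 2 h, and 34.5 and 29.3 after 4 h, with 32.8 in replicate 3. The wild type thus climbed while the HASX libraries stayed between 29.3 and 43.7 CPM.

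The wild-type change of *rep1* was 0.69 ± 0.17 after 2 h and 1.39 ± 0.17 after 4 h (adjusted p = 0.00617 and 3.46e-07). The former ceased to pass when the fit held just the compared groups (0.61, adjusted p = 0.128) and without wild-type 2 h replicate 1 (0.47, adjusted p = 0.0641). HASX exceeded the wild type by 2.50 ± 0.17 at 1 h, 1.82 ± 0.17 at 2 h and 1.04 ± 0.18 at 4 h (adjusted p = 2.79e-12, 4.61e-10 and 1.65e-05). The narrowing of this gap from 1 to 4 h was itself called (-1.46 ± 0.25, adjusted p = 4.71e-05).

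*mei4* (SPBC32H8.11), the forkhead factor of middle meiosis, was likewise higher in HASX than in any wild-type library. Its wild-type level was 1.59, 1.03 and 1.15 CPM at 0 h, 1.35, 1.65 and 0.697 at 1 h, 1.98, 1.77 and 1.79 at 2 h, and 5.08, 5.77 and 5.26 at 4 h. In HASX it was 31.2, 43.5 and 24.9 CPM after 1 h, 39.8, 42.5 and 34.6 after 2 h, and 22.7 and 22.2 after 4 h, with 29.6 in replicate 3. The lowest HASX library at 4 h was thus above the highest wild-type library at 4 h, 5.77 CPM.

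The rise in the wild type at 4 h was 2.10 ± 0.25 (adjusted p = 2.13e-07), with earlier values of -0.02 ± 0.29 and 0.56 ± 0.27 (adjusted p = 0.978 and 0.112). HASX exceeded the wild type by 4.74 ± 0.25, 4.40 ± 0.24 and 2.06 ± 0.23 at 1, 2 and 4 h (adjusted p = 1.68e-14, 2.43e-14 and 2.33e-08). As summed counts this was 1625 against 75 after 1 h, a ratio of 26.3 after scaling to library size with a 95% interval from counting error alone of 20.9 to 33.6. The difference between the 1 to 4 h changes of the strains was -2.68 ± 0.34 (adjusted p = 1.04e-06). Within HASX *mei4* fell by 0.56 from 1 to 4 h (SE 0.22, adjusted p = 0.0457), a call lost in 13 of the 20 fits that left out 1 library (-0.73 to -0.32), with DESeq2 size factors (-0.52, adjusted p = 0.0653) and with replicate 3 counted in its group (-0.42, adjusted p = 0.15).

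*atf21* (SPBC2F12.09c), the ATF/CREB family factor, had the largest difference between the strains among the 9 genes. It was at 0.307, 0.427 and 1.04 CPM in the wild type at 0 h, 0.631, 0.585 and 0.548 at 1 h, 1.32, 0.783 and 0.837 at 2 h, and 1.45, 2.21 and 1.36 at 4 h. In HASX it was at 104, 126 and 77.4 CPM after 1 h, 345, 315 and 291 after 2 h, and 521 and 618 after 4 h, with 416 in replicate 3. The HASX groups did not overlap each other or the wild type.

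*atf21* exceeded the wild type by 7.42 ± 0.25, 8.33 ± 0.24 and 8.42 ± 0.24 at 1, 2 and 4 h (adjusted p = 6.89e-18, 3.44e-19 and 8.95e-19). Ranked from the highest fold change over the 6234 genes, they were in places 16, 11 and 6. The summed counts after 2 h were 14599 in HASX and 65 in the wild type, a ratio of 323 after scaling to library size (counting interval 253 to 419). *atf21* also rose within HASX from 1 to 4 h by 2.48 ± 0.17 (adjusted p = 1.03e-10) and within the wild type by 1.48 ± 0.36 (adjusted p = 0.00126). The difference between those rises was 1.00 ± 0.43 (adjusted p = 0.0626). SPNCRNA.1457, a non-coding RNA annotated on the opposite strand, covers 100% of *atf21*. It was at 11.8 to 20.4 CPM in the wild-type libraries, at 16.3 to 22.5 in HASX after 1 h and at 60.3, 65.1 and 62.9 after 2 h.

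**Figure D2:**
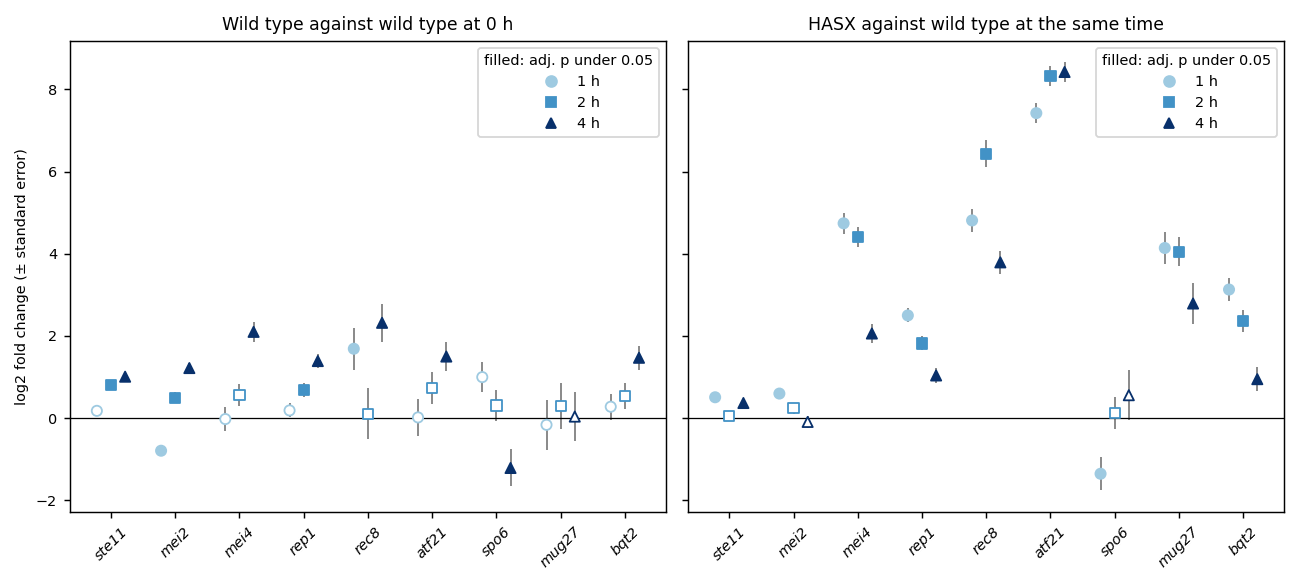
Log2 fold changes of the 9 genes with their standard errors, at left for the wild type after 1, 2 and 4 h against 0 h and at right for HASX against the time-matched wild type (HASX 4 h from replicates 1 and 2); filled symbols have an adjusted p under 0.05. At left the 7 genes that rose by 4 h lie between 1.01 and 2.32; at right *atf21* lies between 7.42 and 8.42 while *ste11* and *mei2* stay between -0.09 and 0.60.

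*rec8* (SPBC29A10.14), the meiotic cohesin gene, had 1 to 12 counts in each wild-type library. Its wild-type level was 0.102, 0.0427 and 0.156 CPM at 0 h, 0.271, 0.266 and 0.448 at 1 h, 0.141, 0.104 and 0.0761 at 2 h, and 0.512, 0.502 and 0.517 at 4 h. HASX had 10.1, 7.77 and 10.1 CPM after 1 h, 8.81, 9.03 and 11.1 after 2 h, and 6.49 and 7.88 after 4 h, with 6.48 in replicate 3. All HASX libraries were above all wild-type libraries, and within HASX the libraries after 1 h overlapped those of both later times.

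The difference in *rec8* was 4.81 ± 0.28, 6.43 ± 0.33 and 3.79 ± 0.28 at 1, 2 and 4 h (adjusted p = 1.41e-13, 9.72e-15 and 3.05e-11). With so few wild-type counts the size is loose: after 2 h the sums were 451 and 7 counts, a ratio of 92.7 after scaling to library size with a counting interval of 44.6 to 232. The change within the wild type at 4 h was 2.32 ± 0.46 (adjusted p = 0.000177), from 6 to 33 summed counts. That at 1 h was 1.69 ± 0.51 (adjusted p = 0.0368). It was lost in 5 of the fits that left out 1 library, namely replicate 1 or 2 of the wild type at 0 h or any of its replicates at 1 h (1.30 to 2.12 over the 20), and with DESeq2 (1.76, adjusted p = 0.0786).

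*bqt2* (SPAC1002.06c), the bouquet gene, was at 1.18, 1.07 and 0.521 CPM in the wild type at 0 h, 1.17, 0.797 and 1.39 at 1 h, 1.51, 1.36 and 1.22 at 2 h, and 2.52, 3.16 and 2.07 at 4 h. HASX had 8.31, 11.7 and 9.80 CPM after 1 h, 8.08, 6.32 and 6.81 after 2 h, and 4.36 and 5.66 after 4 h, with 3.40 in replicate 3. The strains came closer as the wild type rose and HASX fell, without overlap.

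The wild-type rise of *bqt2* at 4 h was 1.47 ± 0.29 (adjusted p = 0.000157). HASX exceeded the wild type by 3.13 ± 0.27, 2.37 ± 0.27 and 0.95 ± 0.29 at 1, 2 and 4 h (adjusted p = 2.24e-10, 1.66e-08 and 0.00539), the last of these no longer called without HASX 4 h replicate 2 (0.80, adjusted p = 0.0603). HASX fell by 0.99 from 1 to 4 h (SE 0.28, adjusted p = 0.00629, and adjusted p = 0.105 without HASX 4 h replicate 1), and this differed from the wild-type change by -2.18 ± 0.40 (adjusted p = 0.000109).

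*mug27* (SPCC417.06c), the kinase of forespore membranes, had 2 to 11 counts per wild-type library, or 0.102 to 0.470 CPM, with no call at any time. HASX had 5.98, 3.74 and 2.59 CPM after 1 h, 5.29, 4.93 and 5.74 after 2 h, and 1.74 and 2.00 after 4 h. Each of these 8 HASX libraries lay above every wild-type library. Replicate 3 at 4 h had 395 CPM, far outside all 20 others.

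The difference of *mug27* from the wild type was 4.14 ± 0.39, 4.05 ± 0.35 and 2.79 ± 0.49 at 1, 2 and 4 h (adjusted p = 9.54e-10, 2.33e-10 and 2.24e-05). After 4 h this rested on 40 counts against 17, a ratio of 7.03 after scaling to library size (counting interval 3.90 to 13.2). From 1 to 4 h HASX fell by 1.15 (SE 0.35, adjusted p = 0.0109), a call lost without HASX 1 h replicate 1 (-0.74, adjusted p = 0.107) or without either HASX 4 h replicate (-1.04 and -1.20). With replicate 3 counted in its group the direction turned, to 5.01 (adjusted p = 0.00308).

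*spo6* (SPBC1778.04), which acts with Spo4 in the second meiotic division, fell in the wild type by 4 h. It was at 1.69, 1.37 and 1.15 CPM at 0 h, 1.98, 2.87 and 3.59 at 1 h, 0.800, 1.20 and 3.08 at 2 h, and 0.811, 0.451 and 0.517 at 4 h. The libraries at 4 h were below those at 0 and 1 h, and 2 h overlapped its neighbours. HASX had 0.635, 0.953 and 1.69 CPM after 1 h, 1.62, 1.71 and 2.37 after 2 h, and 0.713 and 1.11 after 4 h, within the range of the wild type, while replicate 3 at 4 h had 122.

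The change of *spo6* in the wild type was -1.21 ± 0.45 at 4 h against 0 h (adjusted p = 0.0231) and -2.21 ± 0.42 against 1 h (adjusted p = 0.000113). The call against 0 h was lost without 0 h replicate 1 or without 4 h replicate 2 or 3 (-1.12 to -1.06). HASX was below the wild type after 1 h (-1.35 ± 0.40, adjusted p = 0.00358) and not called after 2 h (0.13 ± 0.38, adjusted p = 0.759) or 4 h (0.56 ± 0.61, adjusted p = 0.418). The difference between the 1 to 4 h changes was 1.91 ± 0.75 (adjusted p = 0.0406), lost in 10 of the 20 fits without 1 library (1.63 to 2.40). With replicate 3 counted in its group, the call after 1 h was lost (-1.36, adjusted p = 0.292), and after 4 h HASX was called higher (6.11, adjusted p = 0.000328).

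Replicate 3 of HASX at 4 h differed from replicates 1 and 2 in a part of the 9 genes. *spo6* was 134-fold and *mug27* 211-fold above the mean of those replicates, while the other 7 were at 0.680-fold (*bqt2*) to 1.32-fold (*mei4*) of it. Over the whole table, 495 of 6988 identifiers were at least 4-fold higher in replicate 3 (on CPM with 0.5 added) and 18 at least 4-fold lower, and 349 of the 495 were named SPNCRNA, the prefix of non-coding RNAs, out of 1527 such identifiers. In the lists of meiotic genes, 4 of 35 genes of recombination and pairing and 6 of 39 of division and sporulation were at least 4-fold higher. Among these the recombinase gene *dmc1* was at 164 CPM against a mean of 3.50, and the meiotic septin gene *spn5* at 431 against 40.5.

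The libraries were stranded, but the strand setting of the counting is not given. How far reads of a gene and of a partner on the opposite strand were kept apart is therefore not known. Counts of such partners did differ. After 2 h in HASX *atf21* had 4701, 4983 and 4915 counts, and SPNCRNA.1457, which covers 100% of it, had 821, 1031 and 1063. *spo6* lies wholly within *lam2* of the opposite strand, which was at 280 and 277 CPM in HASX 4 h replicates 1 and 2 and at 256 in replicate 3. *mug27* is covered to 96.2% by SPNCRNA.583, which was at 0.871 and 1.33 CPM in those replicates and at 42.4 in replicate 3. SPNCRNA.1457, over *atf21*, went from 85.5 and 95.3 to 386 CPM, while *atf21* itself was at 521, 618 and 416. Of the 3 partners, *lam2* was thus not higher in replicate 3 and both non-coding RNAs were. The annotation also places non-coding RNAs opposite *rec8* (over 90.4% of it), *bqt2* (100%) and *mei4* (66.7%), among others, and these RNAs are not in the deposited count tables. The part of strand in these values was not tested.

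**Figure D3:**
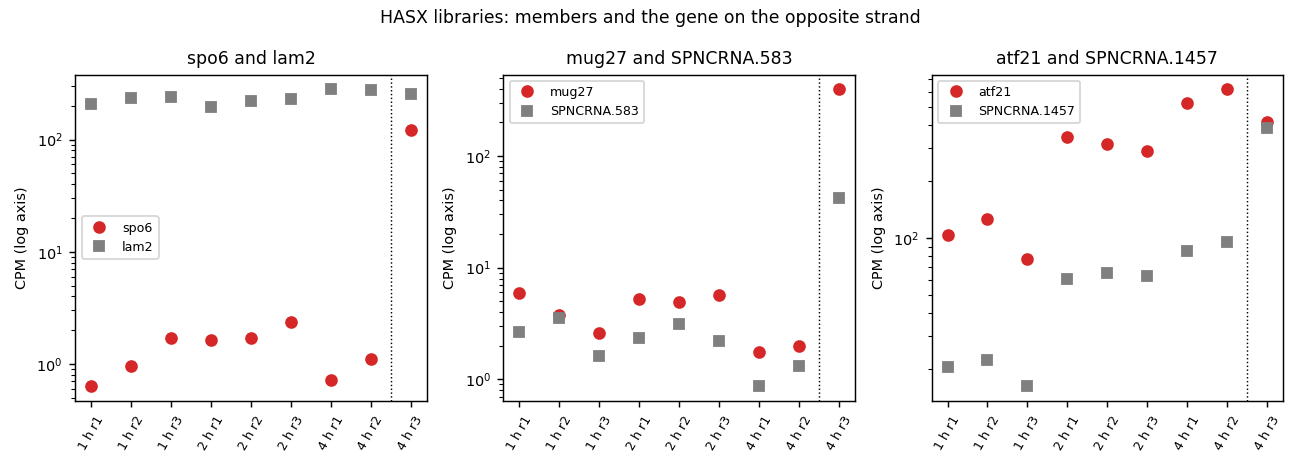
CPM on a log axis in the 9 HASX libraries for *spo6*, *mug27* and *atf21* (red circles) and for the gene annotated on the opposite strand of each (grey squares); the dotted line sets off 4 h replicate 3. To its right *spo6* (122 CPM) and *mug27* (395 CPM) leave the range of the other 8 libraries, *lam2* (256 CPM) does not, and the partners of *mug27* (42.4 CPM) and *atf21* (386 CPM) do.

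Genes that act around the entry into meiosis were taken as a list of 30 (kinases, cyclins, transcription factors and other regulators upstream or downstream of *ste11* and *mei2*). After 4 h the wild type had 15 of the 30 higher and 5 lower, with a median of 0.28, while 29.7% of all genes were called higher and 29.6% lower. The largest rises were of the zinc finger factor genes *rsv1* (1.61, adjusted p = 5.09e-05) and *rsv2* (1.11, adjusted p = 1.21e-07) and of *cgs1* (1.07, adjusted p = 3.93e-08), which encodes the regulatory subunit of protein kinase A. The falls were led by *fkh2* (-1.12, adjusted p = 4.24e-06), a forkhead factor, and *nrd1* (-0.78, adjusted p = 3.03e-06), an RNA-binding protein that represses Ste11-dependent genes, ahead of *zds1* (-0.43, adjusted p = 0.000377).

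In HASX after 2 h, 13 genes of this list were higher and 13 lower than in the wild type, with a median of -0.06, against 40% and 41.3% of all genes. On the upward side *cgs1* was at 12.4, 12.5 and 11.0 CPM in the wild type and at 426, 426 and 468 in HASX (5.20, adjusted p = 1.55e-20). The HASX libraries had 29.1, 34.2 and 24.5 CPM of *rsv1*, where the wild type had 1.03, 0.940 and 0.989 (4.88, adjusted p = 1.33e-14). For *rsv2* the means were 82.3 ± 10.9 and 734 ± 48.4 CPM (3.16, adjusted p = 3.80e-16). Among the lower genes the stress MAP kinase gene *sty1* was at 469, 391 and 371 CPM in the wild type and 79.8, 74.5 and 84.2 in HASX (-2.37, adjusted p = 1.09e-15). The B-type cyclin gene *cig2* (-1.94, adjusted p = 3.73e-13) and the kinase gene *lsk1* (-1.89, adjusted p = 7.92e-13) followed.

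The genes of meiotic mRNA elimination, Mmi1 and its partners, were a list of 14. In the wild type after 4 h, 2 rose and 9 fell (29.7% and 29.6% of all genes), with a median of -0.48. *sme2*, the gene of meiRNA and the RNA in this list that counters Mmi1, was 1 of those that rose (1.18, adjusted p = 0.00167), with *iss10* (0.34, adjusted p = 0.0269). *ctr1* (-1.45, adjusted p = 0.0015), the nuclear exosome subunit gene *rrp6* (-1.02, adjusted p = 0.00182) and the RNA helicase gene *mtl1* (-0.84, adjusted p = 0.000179) led the falls.

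Between HASX and the wild type after 2 h, 5 of the 14 were higher and 3 lower, with a median of -0.06, where 40% of all genes were higher and 41.3% lower. *sme2* (SPNCRNA.103) was at 1.18, 1.15 and 1.33 CPM in the wild type and at 221, 178 and 218 in HASX (7.38, adjusted p = 8.29e-19). In HASX it was at 102, 126 and 127 CPM after 1 h and at 280 and 388 after 4 h, with 254 in replicate 3. The HASX values lay far above the 0.598 to 2.31 CPM of the 12 wild-type libraries, and the zinc finger gene *red5* (1.57, adjusted p = 1.41e-07) and the poly(A) polymerase gene *pla1* (0.73, adjusted p = 1.62e-06) followed at a distance. The poly(A)-binding protein gene *pab2* (-1.04, adjusted p = 4.23e-10), *iss10* (-0.67, adjusted p = 5.20e-05) and the Mmi1 partner gene *erh1* (-0.50, adjusted p = 0.0132) were lower.

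Among 34 tested genes of recombination and chromosome pairing, 12 rose and 5 fell in the wild type after 4 h (29.7% and 29.6% of all genes), with a median of 0.33. The dynein light intermediate chain gene *dli1* (1.91), *num1* (1.88), also known as *mcp5*, which anchors dynein for the nuclear movement of meiotic prophase, and the linear element gene *rec25* (1.80) led. *mpf2* (-2.19), for a meiotic RNA-binding protein of the pumilio family, the shugoshin gene *sgo1* (-1.64) and *hrs1* (-1.11) fell most. The last is a histidine-tRNA ligase gene that came into the list because *mcp6*, which is also listed, is known by that name too. Without it 12 of 33 rose and 4 fell, with a median of 0.45. In HASX after 2 h, 23 of the 34 were higher than in the wild type and 4 lower (40% and 41.3% of all genes), with a median of 1.84 against -0.01 for all genes, and 15 were at least 4-fold higher (13.7% of all genes). On CPM as given here, *rec15*, *rec27*, *meu13* and *mde2* reached the level of the count filter in at most 2 of 12 wild-type libraries. On that scale they passed only through HASX. Of the other 30, 19 were higher and 4 lower, 12 at least 4-fold higher, with a median of 1.68. *num1* was at 1.41, 1.62 and 2.55 CPM in the wild type and 45.4, 39.2 and 40.4 in HASX (4.46, adjusted p = 2.27e-14). The recombination gene *rec7* (4.68, adjusted p = 1.10e-11) had a wild-type mean of 0.530 CPM, and *meu13*, of those that passed only through HASX, had one of 0.272 (4.71). *mpf2* (-3.09), *sgo1* (-2.53) and *rec14* (-1.71) were lower, with adjusted p = 1.21e-14, 1.99e-06 and 4.02e-11.

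Of 39 genes of the meiotic divisions and sporulation, 13 rose and 9 fell in the wild type after 4 h (median 0.31), against 29.7% and 29.6% of all genes. In HASX after 2 h 19 were higher and 10 lower (median 0.53), against 40% and 41.3% of all genes, and 12 were at least 4-fold higher, against 13.7%. Here *spo4*, *mfr1*, *meu26*, *cuf2* and *mug28* passed the count filter, on CPM as given here, only through HASX, and *spo13* only through the wild type. Of the other 33, 14 were higher and 10 lower, 8 at least 4-fold higher, with a median of 0.43. The rises in the wild type were led by *spn5* (1.54), the meiotic RNA-binding protein gene *spo5* (1.14) and *rsv2*, and the falls by *meu6* (-1.59), the spindle pole body gene *spo15* (-1.11) and *meu14* (-1.10). In HASX *spo4*, the kinase partner of *spo6*, had 0, 2 and 0 counts in the wild type and 6, 15 and 19 in HASX, a ratio of 28.8 after scaling to library size (counting interval 7.47 to 246). Also higher were *spn5* (4.20, adjusted p = 1.33e-14) and *spo5*, whose level went from 0.847, 0.992 and 0.875 CPM to 15.3, 16.9 and 14.7 (4.11, adjusted p = 6.21e-12). *mde10* (-3.16), *spo9* (-3.16), a prenyl diphosphate synthase gene, and the phosphatidylinositol transfer protein gene *spo20* (-2.49) were lower, and the last of these acts in growing cells too.

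The conjugation list held 17 genes. In the wild type after 4 h, 9 rose and 1 fell (29.7% and 29.6% of all genes), with a median of 0.33: the pheromone MAP kinase gene *spk1* (1.69), the P-factor receptor gene *mam2* (1.38) and *rgs1* (1.37), a regulator of G protein signalling, led, and *shk1* (-0.53) fell. In HASX after 2 h, 4 were higher and 11 lower, with a median of -0.85, where 40% of all genes were higher and 41.3% lower. *mam2* was at 31.6, 30.8 and 27.8 CPM in the wild type and 3.30, 2.91 and 3.55 in HASX (-3.21, adjusted p = 3.17e-14), and *ste6* (-2.74), for an activator of the small GTPase Ras1, and *ras1* itself (-2.42) were lower too. *fus1*, for the formin of cell fusion, *ste7* and the MAP kinase kinase kinase gene *byr2* were higher, at 2.65, 2.11 and 1.52. The M-factor precursor gene *mfm2* was at 300, 269 and 269 CPM in the wild type and at 3.30, 2.21 and 3.79 in HASX (-6.49, adjusted p = 4.08e-16), while *mfm1* was at -1.28 and *sxa2*, for a carboxypeptidase that degrades P-factor, at 1.65.

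**Figure D4:**
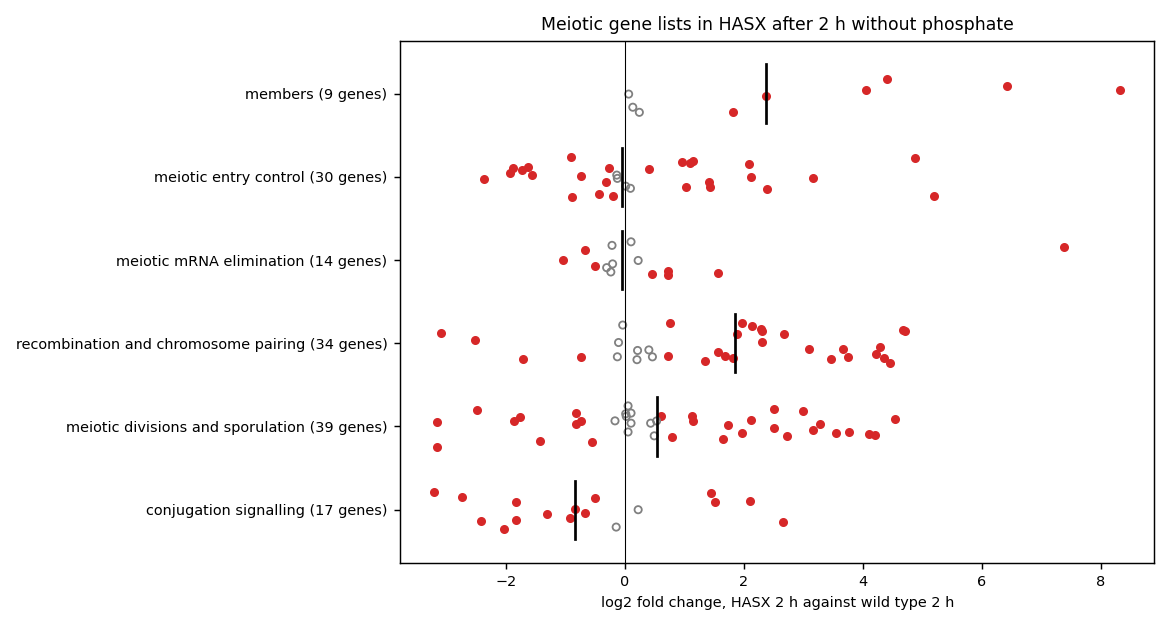
Log2 fold change of HASX against the wild type after 2 h for the 9 genes and 5 lists of genes around meiosis and mating, with 1 point per gene tested (red where the adjusted p was under 0.05, open where not) and a bar at each list's median; the vertical spread carries no value. The recombination and pairing list has its median at 1.84 and the conjugation list at -0.85, and *sme2* is the far right point of the mRNA elimination list at 7.38. Genes that passed the count filter only through HASX are plotted and not marked. Without the 4 of these in the recombination and pairing list its median is 1.68.

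Some transcripts that Mmi1 is known to act on were looked at after their values had been seen. *ssm4*, for a dynactin subunit of meiotic prophase, was at 0.141, 0.731 and 1.79 CPM in the wild type after 2 h and at 17.7, 19.8 and 17.3 in HASX (4.29, adjusted p = 2.90e-10). *crs1*, a meiotic cyclin gene, was at 1.13, 0.209 and 0.799 CPM and at 0.441, 1.45 and 1.12 (0.49, adjusted p = 0.3). The groups were wide apart for *ssm4* and overlapped for *crs1*.

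The 9 genes were compared with each other over the 20 libraries without HASX 4 h replicate 3, as Pearson's r of log2 CPM. These values describe libraries that fall into strains and times. The log2 levels of *mei4*, *rep1*, *rec8*, *atf21*, *mug27* and *bqt2* were correlated, with r between 0.87 and 0.98 for each pair of the 6. All 6 were higher in HASX at each time, which raises an r taken over both strains. Within HASX their courses from 1 to 4 h differed. *atf21* rose (2.48), *mug27*, *bqt2* and *mei4* fell (-1.15, -0.99 and -0.56), and *rep1* and *rec8* were not called (-0.26 and -0.39). *ste11* and *mei2* were more like each other (0.79) than like those 6, for which r was 0.41 to 0.70 with *ste11* and 0.16 to 0.42 with *mei2*. *spo6* was at -0.58 to -0.05 with each of the others.

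Of 4556 protein-coding genes with a mean of at least 10 CPM, those most like *ste11* over these libraries were the phosphate transporter gene *pho84* (0.932), the F-box protein gene *pof15* (0.930) and *cut15* (0.915), an importin alpha gene. *pho84* went from 1344 CPM in the wild type at 0 h to 6631 at 4 h and was at 6573 in HASX after 2 h. Most like *mei2* were *coq7* (0.872), *ndi1* (0.862) and *fum1* (0.850), nuclear genes of mitochondrial proteins. Most like *rec8* were *cum1* (0.989), the metacaspase gene *pca1* (0.985) and the ubiquitin protease gene *ubp8* (0.985). *cum1* was at 3.56 CPM in the wild type at 0 h, 20.5 at 4 h and 2713 in HASX after 2 h. Most like *atf21*, added after its values were seen, were the tyrosine phosphatase gene *pyp2* (0.996), the mechanosensitive channel gene *msy1* (0.995) and SPCC16A11.15c (0.993).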

How the data were processed

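PolyA RNA was extracted with hot acid phenol, made into stranded TruSeq libraries and sequenced paired-end on a NovaSeq X Plus, per the labels' protocols. The submitters' processing notes name HISAT2 2.1.0, SAMtools, HTSeq 0.10.0, DESeq2 and build ASM294v2; their roles, settings and strand option are not given in the sources used here, nor is how reads of overlapping genes were assigned. The authors deposited whole-number counts per gene and library, per the file headers. They also deposited 6 tables of comparisons against the wild type at 0 h, whose columns per the file headers are mean normalized counts (a signal with no further unit), log2 fold changes with their errors, a test score (the Wald statistic) and p-values. Those tables were used only as a check.

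Identifiers were matched to the annotation of ASM294v3 for names and overlaps of genes only, so no positions are given: a locus tag was found for 6836, a synonym for 3, and no match for 149. The counts of both tables, 11.24 M to 23.68 M per library, were analysed with edgeR 4.0.16 in R 4.3.3. filterByExpr over the 7 groups left 6234 genes and removed 754, and library sizes were scaled with TMM. One quasi-likelihood model covered all 21 libraries, with HASX 4 h replicate 3 as a term of its own (13 residual degrees of freedom, common biological coefficient of variation 0.131). A gene was called at a Benjamini-Hochberg adjusted p under 0.05. The standard error is the fold change divided by the square root of F. Ratios of summed counts carry exact 95% intervals for counting error only. Checks ran on simulated counts.

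The 9 genes and the lists were chosen with earlier results of these data known. From each list the text names up to 3 higher and 3 lower called genes of largest change for the wild type at 4 h against 0 h and for HASX against the wild type at 2 h, and the 3 protein-coding genes most like *ste11*, *mei2* and *rec8*. Not analysed, for want of a match, were *psy3*, *mug29*, *sma2*, *prk1* and 5 genes of the P mating type. Alternatives were DESeq2 1.42.0 as test or for size factors, no count filter, only the groups compared, the replicate number as a block, replicate 3 counted in its group, and each of the 20 libraries left out.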

Additional observations from a re-analysis of the deposited data

Results flagged for a closer look

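For 5 genes the change from 1 to 4 h without phosphate differed between HASX and the wild type by the test of the difference itself. It was below 0 for *mei2* (-0.69, adjusted p = 0.00483), *mei4* (-2.68, adjusted p = 1.04e-06), *rep1* (-1.46, adjusted p = 4.71e-05) and *bqt2* (-2.18, adjusted p = 0.000109), and above 0 for *spo6* (1.91, adjusted p = 0.0406), the last a call that 10 of 20 left-out libraries end. All 5 rest on HASX 4 h replicates 1 and 2.

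HASX 4 h replicate 3, which entered no comparison, had *spo6* at 122 CPM and *mug27* at 395 CPM. The highest of the other 20 libraries had 3.59 and 5.98 CPM, so the ratios to it were 34.1 and 66.1.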

How the results depend on the processing

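Over alternatives other than leaving out a library, 138 of 144 counts of the 9 genes stayed within 1.5 times and 626 of 642 single changes kept direction and call. With HASX 4 h replicate 3 counted in its group, the genes called lower became 0 for the wild type at 4 h against 0 h and against 1 h and 0 for HASX against the wild type at 1 h, and HASX at 4 h against 1 h had 5 higher and 1 lower. *spo6* in HASX at 4 h then turned to 4.88 against the wild type at 0 h and 5.24 against HASX at 1 h, and *mug27* to 5.01 against HASX at 1 h and 4.82 in the difference between strains (adjusted p = 0.15). With only the groups compared, 2 genes had a difference above 0, *atf21* joining at 1.04 (adjusted p = 0.0415). Leaving out 1 library gave ranges of genes higher of 0 to 2 (wild type 1 h against 0 h), 0 to 2 (the difference between strains) and genes lower of 0 to 1 (wild type 4 h against 0 h), 0 to 1 (HASX 1 h against wild type 0 h) and 0 to 3 (HASX 4 h against 1 h). Some uncalled changes passed through 0 there. At 1 h in the wild type these were *mei4* (-0.27 to 0.26), *atf21* (-0.26 to 0.65) and *mug27* (-0.71 to 0.79). At 2 h they were *rec8* (-0.28 to 0.54), *spo6* (-0.49 to 0.65) and *mug27* (-0.05 to 1.25), and *mug27* again at 4 h (-0.31 to 0.99) and from 1 to 4 h (-0.03 to 0.74). Between strains they were *ste11* (-0.04 to 0.14) and *spo6* (-0.21 to 0.94) at 2 h and *mei2* at 4 h (-0.15 to 0.03), and within HASX *spo6* (-0.58 to 0.19). The call of *spo6* after 2 h came with wild-type 2 h replicate 3 left out (0.94, adjusted p = 0.0238). The cause was not tested. The median of all genes moved by 0.14 under DESeq2 and 0.11 with replicate 3 counted in (HASX 4 h against wild type 0 h), and by at most 0.09 otherwise.

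Libraries of the same replicate number were not more alike across groups than others. Deviations from the group mean correlated at -0.656 to 0.424 in 57 same-numbered pairs, with a median of 0.00253. In 114 pairs of other numbers they correlated at -0.422 to 0.664, with a median of 0.00317. The replicate block changed the call of 1 gene and no count by over 1.5 times: *mei2* in HASX against the wild type at 2 h stayed at 0.24 and passed (adjusted p = 0.0386). The wild-type counts of *rec8* and *mug27*, 1 to 12 per library, limit the size of their differences.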

Other observations

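In HASX 4 h replicate 3, genes of recombination and sporulation beyond *spo6* and *mug27* stood above the other 20 libraries: *dmc1* at 164 CPM against at most 13.1, *spn5* at 431 against 49.3, *meu14* at 13.8 against 2.43, *meu17* at 16.6 against 6.40 and *meu26* at 8.77 against 1.30. The kinase gene *spo4* was at 5.11 against 1.12, and *rec7* at 43.5 against 16.9. None of the 30 entry control genes was at least 4-fold higher or lower there than the mean of replicates 1 and 2, and their median log2 difference was -0.18. Below that cut, *sty1* was at 508 CPM against 129 and 130, and *cig2* at 144 against 55.0 and 57.1.

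For HASX at 4 h, the log2 fold changes in the authors' deposited table differ from the log2 ratio of the means in that same table. The difference exceeds 0.5 for 669 of 5578 genes with both means at 20 or more (12%), and for none in the other 5 of the authors' deposited tables. For *ste11* the authors' deposited table gives 3.05 where its means, 1176 and 3184, give 1.44. For *mei2* the authors' deposited table gives 3.22, and its means give 1.18. For *mug27* the authors' deposited table gives 10.46 against 9.20, but its wild-type mean there is 4.38, under the limit of 20.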
